A study of Mus musculus with 10 samples.

Results

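The 39 genes described here encode the thin filament, the Z-disc, titin, the M-band and proteins that build or clear these structures in heart muscle. They were chosen by name, with the myosin chains left out, and each of the 39 had its own row among the 24160 rows of the table. They form 6 groups: 11 thin filament genes, titin with myosin-binding protein C (2 genes), 13 Z-disc genes, desmin with its partners Cryab and Bag3 (3 genes), 5 M-band genes, and 5 genes of assembly, turnover and alpha-kinases. All were measured in polyadenylated RNA from the left ventricle, taken at its posterior wall, in 6 MC4R-/- libraries (knockout, without the melanocortin 4 receptor, a receptor best known for control of food intake) and 4 WT libraries (wild type). Both groups were C57BL6/J mice aged 30 weeks, bred from heterozygous pairs and kept at 24 °C. The labels name no other allele, driver or agent. The series is about the heart disease of these knockouts, and the comparison asks whether sarcomere transcripts differ between the genotypes. Whether the libraries come from separate animals is not stated in the labels, so p-values measure the spread between these libraries.

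A sarcomere is the repeating contractile unit of a muscle fibre. Thin filaments of actin, tropomyosin and troponin are anchored and crosslinked at the Z-disc, thick filaments of myosin are held in register at the M-band, and titin spans from Z-disc to M-band as a spring and scaffold. In heart, mutations in many of these genes, titin, troponin T, desmin and the chaperone Bag3 among them, are known causes of inherited cardiomyopathy, and the makeup of titin and of the M-band is known to shift in dilated hearts.

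Reads assigned to genes ran from 4145033 to 6425785 per library, and the 39 genes took 6.94 to 7.23% of them. The 14 cardiomyocyte markers, 3 of them members, fit the labelled tissue, at a summed normalized count (reads divided by a library's size factor) of 615068 to 666280 in the knockout and 639796 to 689892 in wild type. Mc4r had 4 reads over the knockout and 2 over the wild type libraries, so it checks no label. A pair of libraries stood apart. Wild type replicate 2 held 899 normalized counts over 10 lymphocyte markers, against 18.3 to 51.0 in the other libraries, and knockout replicate 5 held 3418 over 6 atrial markers, against 515 to 1364 elsewhere. The female-linked transcript Xist had its highest value, 134, in wild type replicate 2, against at most 4.13 in the knockout. The Y-linked gene Ddx3y ran from 387 to 483 in the knockout and from 340 to 475 in wild type. The source of the Xist reads was not tested. Fibroblast markers summed to 7417 to 8790 in the knockout and 6314 to 7559 in wild type. Of 10 fibroblast markers 2 were called higher by limma (20%, against 0.459% of all tested genes). All 10 had a log2 fold change above 0, and 6 had an unadjusted p below 0.05 (60%, against 9.6%). Macrophage markers summed to 2266 to 2729 against 1886 to 2322. Of these 8, 7 lay above 0 and 1 below, and 4 had an unadjusted p below 0.05 (50%), all higher. For 2 the genotypes did not overlap (25%, against 2.28% of all tested genes). The part of these cell types in the results was not tested. Without both libraries Myot and Alpk2 were still called (limma adjusted p = 0.0398 and 0.0288). Of the 12 skeletal muscle markers, 3 (Myh2, Myh4 and Myf6) were at 0 in all libraries. Mybpc2 was the highest, with a mean normalized count of 155 (knockout) and 148 (wild type). Each remaining marker had at most 55 reads over all libraries, the number for Atp2a1.

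Promoters ran from 250 bases before to 50 after a start site. Those of 31 of the 39 genes were used, from RefSeq GRCm38.p6 (39 promoters, since some genes have several starts). Genes without an entry include Myot, Alpk2 and Myom2. The examples below were chosen because results turn on these genes: Actc1, the most abundant member, Mybpc3 and Synpo2, with an unadjusted p below 0.05, and Myom1, the M-band partner of Myom2. Capitals mark a CArG box (bound by serum response factor), a MEF2 site or the TATA box letters TATAAA, on either strand. Motifs were matched by letters alone, wherever they lie. The TATAAA of Actc1 lies after the start site, and that of Synpo2 near the upstream end. Letters are 5′ to 3′ on the gene's own strand. In Synpo2 the MEF2 site and the TATA match overlap. The Myom1 window used lies inside the gene, which spans 71003332 to 71126856 on chromosome 17, and not at its 5′ end.
Actc1, chr2:114052826-114053125, minus strand: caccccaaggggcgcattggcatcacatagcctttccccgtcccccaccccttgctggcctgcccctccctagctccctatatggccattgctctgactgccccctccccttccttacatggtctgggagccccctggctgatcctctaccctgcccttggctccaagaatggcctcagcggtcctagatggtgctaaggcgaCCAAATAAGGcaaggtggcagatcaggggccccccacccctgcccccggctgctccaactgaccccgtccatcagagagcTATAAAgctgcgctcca
Mybpc3, chr2:91117894-91118193, plus strand: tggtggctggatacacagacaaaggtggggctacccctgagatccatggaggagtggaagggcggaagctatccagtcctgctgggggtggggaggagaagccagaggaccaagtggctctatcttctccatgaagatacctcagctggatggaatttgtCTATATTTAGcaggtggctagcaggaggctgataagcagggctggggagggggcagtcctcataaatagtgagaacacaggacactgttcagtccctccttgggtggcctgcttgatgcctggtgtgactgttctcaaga
Synpo2, chr3:123236100-123236399, minus strand: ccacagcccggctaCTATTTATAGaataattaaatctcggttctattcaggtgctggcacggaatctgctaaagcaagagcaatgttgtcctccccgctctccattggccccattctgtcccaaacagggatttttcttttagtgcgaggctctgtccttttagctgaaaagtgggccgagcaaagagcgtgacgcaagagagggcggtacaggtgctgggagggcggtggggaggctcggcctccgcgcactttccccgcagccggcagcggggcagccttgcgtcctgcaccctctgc
Myom1, chr17:71019307-71019606, plus strand: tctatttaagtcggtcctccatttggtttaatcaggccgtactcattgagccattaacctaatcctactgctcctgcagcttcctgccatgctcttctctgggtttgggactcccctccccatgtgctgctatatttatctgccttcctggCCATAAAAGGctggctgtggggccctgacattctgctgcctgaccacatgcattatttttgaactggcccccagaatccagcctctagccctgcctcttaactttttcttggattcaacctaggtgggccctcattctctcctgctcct

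Of 6 motifs searched on both strands, those of the muscle regulators MEF2 and serum response factor had the largest ratio between the members' promoters and all promoters. A MEF2 site was in 10 of 39 promoters (25.6%, 9 genes), against 3.19% of all 32851 promoters, and a CArG box in 5 (12.8%, 4 genes), against 1.63%. CArG boxes were in the promoters of Actc1, Ldb3, Myom1 and Nebl. MEF2 sites were in those of Alpk3, Fbxo40, Lrrc39, Mybpc3, Myom3, Myoz2, Synpo2, Synpo2l and Ttn. The E-box (CANNTG) was in 79.5% against 72.3%, the M-CAT element (CATTCC) in 8 of 39 against 14.7%, TATAAA in 15.4% against 13.6% and the GATA site (AGATAA) in 10.3% against 11.2%. Promoters of the same gene can overlap, and these shares are a description without a test.

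Levels per length spanned 4 orders of magnitude. Averaged over the 10 libraries and divided by transcript length, Actc1 (cardiac actin) led with 52153 normalized counts per kb, followed by Tnnt2 (troponin T) with 42541, Tpm1 (alpha-tropomyosin) with 37150, Tnni3 (troponin I) with 26068 and Tnnc1 (troponin C) with 18741. The highest member outside the thin filament was the small heat shock protein gene Cryab, with 13132 per kb. Among Z-disc genes Tcap, the titin cap telethonin, was highest with 8307 per kb, and Mybpc3 had 6776. Ttn, with a transcript length of 91123 bases, had 374 per kb. At the other end stood Neb, the nebulin of skeletal muscle, with 2.50 per kb, and the M-band gene Myom3 with 5.56. Myom3 had 317 reads over all libraries, the fewest of any member.

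**Figure D1:**
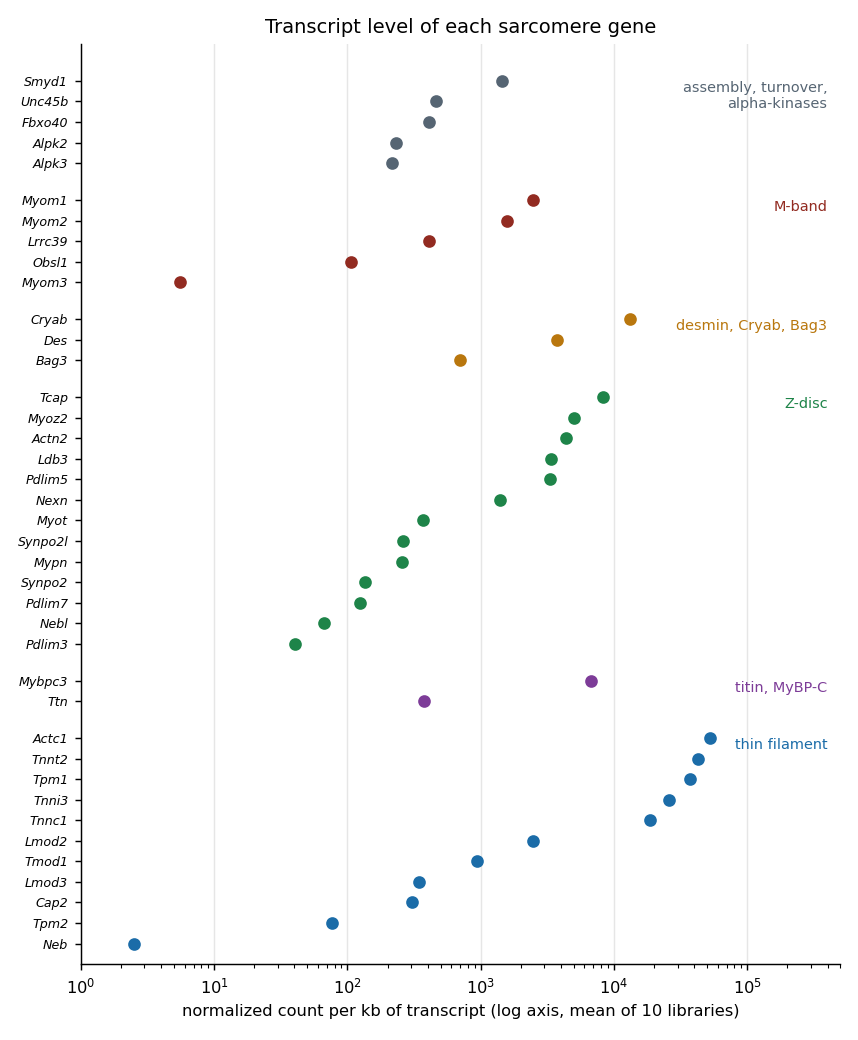
Mean normalized count per kb of transcript over 10 libraries (horizontal log axis) for each of the 39 genes (vertical axis), coloured by structure. The 5 core thin filament genes lie above all others, and Neb and Myom3 lie lowest.

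Most of these transcripts differed little between the genotypes. The test called 2 of the 39 (adjusted p of at most 0.05, limma on log2(normalized count + 1), Benjamini-Hochberg over 14611 tested genes), both higher in the knockout: the Z-disc gene Myot and the alpha-kinase gene Alpk2. This is 5.13% of the members, against 0.459% of all tested genes (0.287% higher and 0.171% lower) and 1.89% of the 951 tested genes with a mean of at least 1000 normalized counts. DESeq2 called 3 (Myot, Alpk2 and Myom2), against 1.18% of its tested genes (0.726% higher and 0.455% lower), and edgeR called 2 (Myot and Myom2), against 0.342% (0.205% higher and 0.137% lower). No member was called lower by limma (0, against 2 lower at an unadjusted p below 0.05, and 1, the M-band gene Myom2, by both edgeR and DESeq2). At an unadjusted p below 0.05 there were 6 members (15.4%), 4 higher and 2 lower, against 9.6% of all genes (5.19% higher and 4.41% lower). The median log2 fold change was 0.0040 over the members and -0.0055 over all tested genes, with 20 members above 0 and 19 below (51.6% of all genes lay below). For 28 of the 39, the 95% interval of the log2 fold change lay within 0.3 of 0, a change of up to 23.1%. A change in the number of cardiomyocytes and a change in RNA per cell cannot be told apart in these bulk samples.

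**Figure D2:**
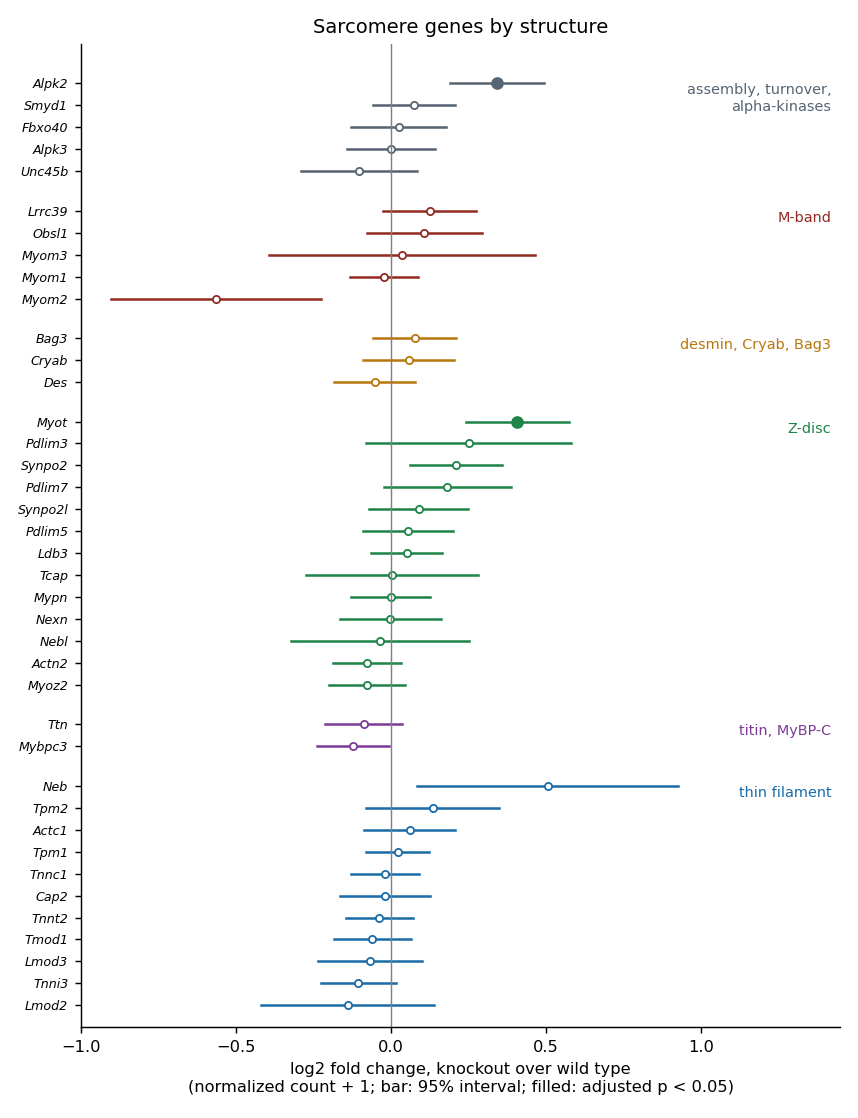
Log2 fold change of each gene, knockout over wild type, with its 95% interval (limma), grouped by structure. Filled points passed an adjusted p of 0.05. Myot and Alpk2 lie above 0, Myom2 lies farthest below, and most other intervals hold 0.

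Thin filament transcripts differed little. Of 11 genes, none was called by limma, edgeR or DESeq2 (0 by each), 1 had an unadjusted p below 0.05, and the median log2 fold change was -0.02. Actc1, on chromosome 2 from 114047282 to 114052875 (GRCm38), had 78214, 80974, 75253 and 65104 normalized counts in the 4 wild type libraries, and a lowest, median and highest value of 68724, 80104 and 86168 in the knockout. The groups overlapped, and the log2 fold change was 0.06, with an interval from -0.09 to 0.21. Actc1 and Acta1, the skeletal actin gene, encode near-identical proteins. Whether reads of Actc1 were assigned to Acta1, or the reverse, was not tested.

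The troponin and tropomyosin genes of the regulatory complex were not called. Tnnt2, which ties troponin to tropomyosin, had a log2 fold change of -0.04 (interval -0.15 to 0.07), Tnnc1, the calcium sensor, -0.02 (-0.13 to 0.09), and Tpm1 0.02 (-0.08 to 0.12). Tnni3, the inhibitory subunit, had 23096 ± 1874 for 6 knockout libraries and 24791 ± 1270 for 4 wild type libraries (SD), and its log2 difference was -0.10 (-0.23 to 0.02, limma adjusted p = 0.618). None of these 4 genes reached the threshold.

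Genes that set thin filament length were not called either. Tmod1, which caps the pointed end, had -0.06 (-0.18 to 0.07), while Lmod2, the leiomodin that elongates that end, had 4661 ± 640.3 against 5154 ± 921 and an interval from -0.42 to 0.14. Lmod3 had -0.07 and Cap2, which acts in actin turnover, -0.02. Tpm2 (beta-tropomyosin, also expressed in smooth muscle) had 167 ± 18.3 against 151 ± 14.6.

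Neb had the smallest p of the thin filament group and turned on a single library. Its wild type values were 78.9, 35.2, 30.5 and 41.4 normalized counts, and its knockout values ran from 50.9 over a median of 60.7 to 77.5. Wild type replicate 1 lay above every knockout library and the other 3 below all of them. The log2 fold change was 0.51 ± 0.20 (SE, limma adjusted p = 0.390), and without wild type replicate 1 it was 0.79 with an adjusted p of 0.0381. Skeletal muscle markers had summed counts of 135 to 217 in the knockout and 137 to 227 in wild type, most of it from Mybpc2 (112 to 191 and 105 to 207). The other markers summed to 16.5 to 33.4 in the knockout and 5.54 to 32.5 in wild type, with 20.2 in wild type replicate 1.

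Titin and myosin-binding protein C, a thick filament protein that tunes crossbridge cycling, had lower means in the knockout and were not called. Mybpc3, on chromosome 2 from 91118114 to 91136516, had 32279, 29739, 26613 and 30086 normalized counts in wild type, and 25620, 27134 and 29055 (lowest, median, highest) in the knockout. Wild type replicate 3 lay inside the knockout range and the other wild type libraries above it. Its log2 fold change was -0.12 ± 0.06 (SE, limma adjusted p = 0.490). Ttn had 33285 ± 2488 against 35382 ± 2920 (log2 fold change -0.09, interval -0.21 to 0.04, limma adjusted p = 0.702). The table gives a single value for titin, so its spliced forms cannot be compared.

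Among the 13 Z-disc genes, Myot rose and the others did not pass. Myotilin, its product, binds alpha-actinin and filamin and stabilizes actin bundles at the Z-disc. Myot, on chromosome 18 from 44334053 to 44355740, had 821, 599, 678 and 644 normalized counts in wild type, and 800.4, 925 and 957 (lowest, median, highest) in the knockout. Knockout replicate 1 lay below wild type replicate 1, and each other knockout library lay above all of wild type. The knockout mean was 905 ± 59.1 (SD, n = 6) and that of wild type 686 ± 95.6 (SD, n = 4). Myot rose by a log2 fold change of 0.41 ± 0.08 (SE, limma adjusted p = 0.0140).

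The Myot call held by edgeR (adjusted p = 0.0409) and DESeq2 (0.00126). It was lost without knockout replicate 2 or wild type replicate 4 (limma adjusted p up to 0.0806), and without the trend and robust steps of limma (0.286). Myot lies 22.5 Mb from Mc4r on the same chromosome. Of tested genes 4 of 27 were called within 2 Mb of Mc4r, 4 of 105 within 10 Mb and 5 of 185 within 25 Mb, so Myot was the one called gene between 10 and 25 Mb. The genotype and alleles linked to the knockout allele cannot be told apart for it.

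The core of the Z-disc was level. Actn2, the alpha-actinin that crosslinks thin filaments, had -0.08 on the log2 scale (-0.19 to 0.03), Myoz2, a calcineurin-binding calsarcin, -0.08 (-0.20 to 0.04), and Ldb3, a PDZ-LIM scaffold, 0.05 (-0.06 to 0.17). Mypn, which links titin and nebulin-type proteins to alpha-actinin, had 1336 ± 30.5 against 1338 ± 50.1. Nexn, an actin-binding Z-disc protein, had 3600.0 ± 305 against 3618 ± 489. Tcap had 6734, 8999, 7738 and 7861 normalized counts in wild type and a knockout range of 6010.3 to 9920 around a median of 7697. It spread widely in both groups, and its interval ran from -0.27 to 0.28.

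The remaining Z-disc genes had higher means in the knockout, with the exception of the nebulin relative Nebl (378 ± 29.7 against 396 ± 93.6). The Nebl row is paired with 1 of the RefSeq transcripts of that gene, so its value may not cover the whole locus. Synpo2, an actin-bundling protein also found in smooth muscle, had 1012 ± 76.0 against 875 ± 71.2, a log2 fold change of 0.21 ± 0.07 (SE, limma adjusted p = 0.267). Its cardiac relative Synpo2l had 0.09 (-0.07 to 0.25). The PDZ-LIM genes Pdlim3, Pdlim5 and Pdlim7 had 0.25, 0.06 and 0.18, each with an interval that holds 0. Smooth muscle and pericyte markers summed to 7465 to 8049 in the knockout and 7001 to 9044 in wild type.

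Desmin and its chaperones did not differ beyond their spread. Des, the intermediate filament that ties Z-discs together, had 11043 ± 618 against 11476 ± 1109. Cryab, which protects desmin and titin from aggregation, had 11207, 12064, 9489 and 10632 normalized counts in wild type, and a lowest, median and highest value of 10417, 10817 and 13462 in the knockout. The highest value was in knockout replicate 3, and the groups overlapped. Bag3, the co-chaperone that clears damaged filamin, had 1603, 1649, 1959 and 1691 in wild type and 1771, 1820 (1819.8) and 1849 in the knockout. Knockout libraries were close together, and wild type replicate 3 lay above them and the other 3 below. The Bag3 log2 fold change was 0.08 ± 0.07 (SE, limma adjusted p = 0.766).

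At the M-band, Myom2 had the lowest knockout level of any member relative to wild type. Its product, M-protein, crosslinks myosin filaments together with myomesin. Myom2, on chromosome 8 from 15057653 to 15133420, had 9451, 7900 (7900.2), 10342 and 11749 normalized counts in wild type, and 5123, 7191 and 7556 (lowest, median, highest) in the knockout. Every knockout library lay below every wild type library. This held for 1 of 39 members (2.56%), for 2.28% of all tested genes (1.34% higher and 0.938% lower) and for 4.84% of those with a mean of at least 1000 normalized counts, so 1 such gene among 39 is near the background and no result about the members.

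Both genotypes spread widely, at a knockout mean of 6675 ± 1090 (SD, n = 6) and a wild type mean of 9861 ± 1613 (SD, n = 4). The Myom2 log2 fold change was -0.57 ± 0.15 (SE, limma adjusted p = 0.221), so it did not pass. It passed by edgeR (adjusted p = 0.0324) and DESeq2 (0.0236), and by limma without its robust step (0.0218), but not by edgeR with robust dispersions (0.217). These robust steps give genes of unusually high spread less shared information, and both were compared after the data were seen. With any library left out, the log2 fold change stayed between -0.67 and -0.48 and the limma adjusted p between 0.113 and 0.395.

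The other M-band genes did not follow Myom2. Myom1, which encodes myomesin, had 14269, 13262, 13537 and 13073 normalized counts in wild type, and 12339, 13273 and 14081 in the knockout (lowest, median, highest). The ranges overlapped, with a log2 fold change of -0.02 and an interval from -0.13 to 0.09. Lrrc39, an M-band protein that binds myosin, had 1316 ± 81.9 against 1209 ± 125 (log2 fold change 0.12, interval -0.02 to 0.27). Obsl1, a titin-binding cytoskeletal adaptor, had 0.11 (-0.08 to 0.29), and Myom3, at 31.0 counts in each group, an interval from -0.39 to 0.47.

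**Figure D3:**
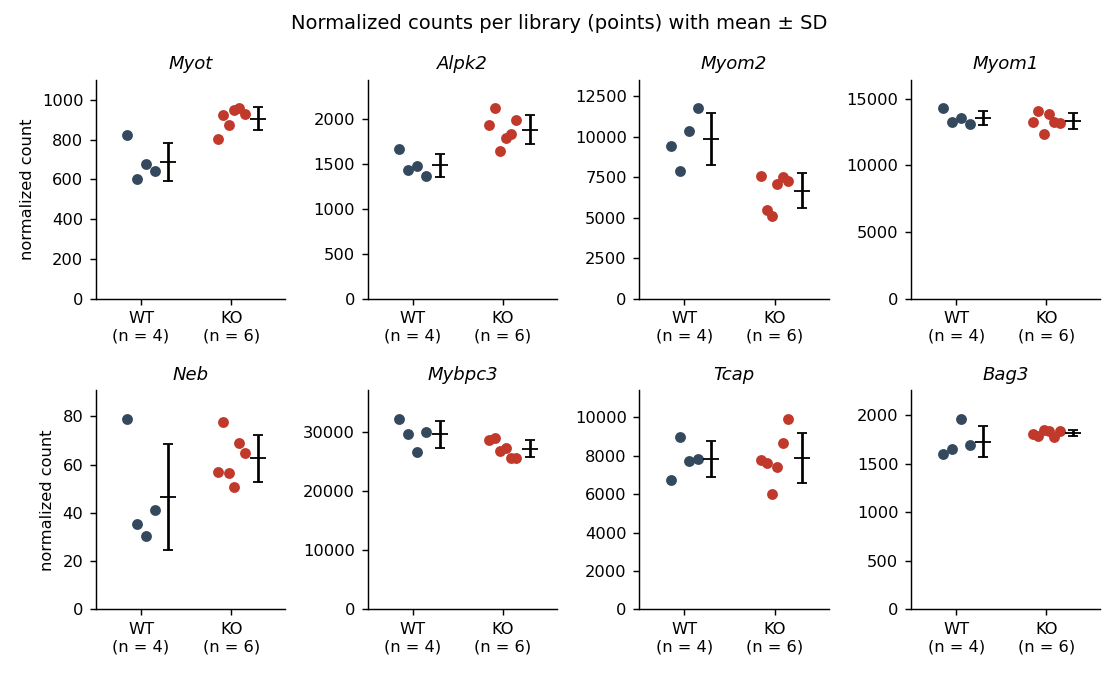
Normalized counts per library (points) with mean ± SD (bars) for 8 genes in 4 wild type and 6 knockout libraries. Myom2 separates the genotypes while Myom1 does not, and Myot and Alpk2 are higher in the knockout with a slight overlap.

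Of 5 genes of assembly, turnover and alpha-kinases, Alpk2 rose and the others did not pass. Alpk2 encodes an atypical protein kinase of heart muscle. Alpk2, on chromosome 18 from 65265529 to 65393888, had 1668, 1436, 1481 and 1367 normalized counts in wild type, and 1651, 1884 and 2125 (lowest, median, highest) in the knockout. Knockout replicate 3 lay just below wild type replicate 1, and each other knockout library above all of wild type. The means were 1888 ± 165 and 1488 ± 129, a log2 fold change of 0.34 ± 0.07 (SE, limma adjusted p = 0.0278).

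The Alpk2 call was less firm than that of Myot. It held by DESeq2 (adjusted p = 0.00226) and missed the threshold by edgeR (0.0520). Leaving out any 1 of 5 libraries ended it: knockout replicate 1, 2 or 6, or wild type replicate 3 or 4 (limma adjusted p up to 0.168). It also missed the threshold with every gene above 0 tested and without the trend and robust steps of limma (up to 0.320). Alpk2 lies 1.46 Mb from Mc4r. Within 2 Mb of Mc4r 4 of 27 tested genes were called (14.8%), 3 of them higher, with Alpk2 itself counted in both numbers. The share was 0.43% of the 14426 genes farther than 25 Mb away or on other chromosomes. The genotype and alleles linked to the knockout allele cannot be told apart here either.

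Alpk3, the related kinase whose loss causes cardiomyopathy, had 1366 ± 109 against 1364 ± 27.7, with an interval from -0.14 to 0.14. Smyd1, a methyltransferase needed to build sarcomeres, had 5044, 4552, 4666 and 4489 normalized counts in wild type, and a knockout range of 4440 (4439.7) to 5383 around a median of 4923. The groups overlapped, with a log2 fold change of 0.07 (-0.06 to 0.21). Unc45b, the chaperone that folds myosin heads, had -0.10 (-0.29 to 0.08), and Fbxo40, a muscle F-box protein, 0.02 (-0.13 to 0.18).

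On a log scale that weights each gene equally, no structure separated the genotypes. Each library was placed by the mean log2 deviation of a group's genes from their own means over the 10 libraries. For the Z-disc, wild type ran from -0.0987 to -0.0227 and the knockout from -0.0340 to 0.0896. Titin with myosin-binding protein C went the other way, from -0.0162 to 0.179 in wild type and from -0.100 to 0.0874 in the knockout. For the thin filament, both genotypes covered nearly the same range, from -0.0876 to 0.0809 in wild type and from -0.0642 to 0.0858 in the knockout. Wild type replicate 1 was the highest wild type library in every group but desmin with its partners, and wild type replicate 2 the lowest for the thin filament, titin and the Z-disc. Plain sums of normalized counts, which weight abundant genes, overlapped as well except at the M-band, with 19249.7 to 22714 in the knockout and 22764.5 to 26510.5 in wild type. Myom2 is counted in that sum, and the other 4 M-band genes did not differ beyond their spread.

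**Figure D4:**
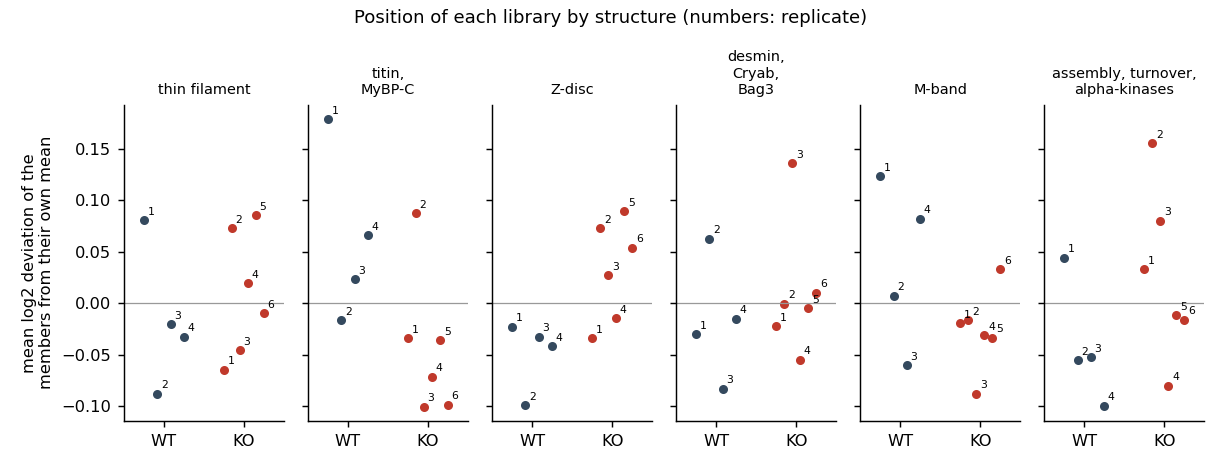
Mean log2 deviation of the genes of each structure from their own means (vertical axis) for each library, numbered by replicate, in wild type and knockout. The groups overlap in all 6 panels. For titin with myosin-binding protein C, replicate 2 is the one knockout library above 0.

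Ratios between partner genes were compared within each library. Over 15 ratios (of normalized counts, not per length), 0 passed an adjusted p of 0.05 by an exact two-sided permutation test over 210 splits, and 2 had an unadjusted p below 0.05. With 15 ratios, 1 ratio at the smallest p these splits can give has an adjusted p of 0.0714, so no ratio could pass alone. The log2 ratio of Myom2 to Myom1 had a knockout mean of -1.01 ± 0.24 (SD, n = 6) and a wild type mean of -0.47 ± 0.26 (SD, n = 4), with no overlap between libraries (exact permutation p = 0.00476, the smallest these splits can give, adjusted p = 0.0714). The ratio of Alpk2 to Alpk3 was 0.47 ± 0.14 against 0.12 ± 0.10 (exact permutation p = 0.0143, adjusted p = 0.107). The ratio of skeletal to cardiac actin, Acta1 to Actc1, differed by 0.61 (exact permutation p = 0.238, adjusted p = 0.667). It rested partly on 2 libraries, since the difference was 0.36 without knockout replicate 3, which had 9441 normalized counts of Acta1 against 2371 to 4336 in the other knockout libraries, and 0.28 without wild type replicate 3.

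Other genes of the sarcomere, outside the 39, were read from 6 lists of 103 genes, of which 99 were tested. Of these, 2 were called higher and 0 lower by limma (2.02%). This compares with 0.459% of all genes and 1.89% of those with a mean of at least 1000 normalized counts. By edgeR 1 was called higher and 0 lower, against 0.205% and 0.137% of all genes, and by DESeq2 3 higher and 2 lower, against 0.726% and 0.455%. At an unadjusted p below 0.05 there were 9 higher and 10 lower, against 5.19% and 4.41% of all genes. Both genes called by limma were in the list of other Z-disc and costamere genes (23 tested). Fhl1, a LIM protein that binds titin and takes part in stretch sensing, had a log2 fold change of 0.41 ± 0.08 (SE, limma adjusted p = 0.0114). Capn3, a titin-bound protease, had 56.3 ± 14.5 against 30.4 ± 4.98 and a log2 difference of 0.85 ± 0.19 (SE, limma adjusted p = 0.0334). In both genes the genotypes did not overlap. Leaving out knockout replicate 2, wild type replicate 1 or wild type replicate 4 ended the Fhl1 call (limma adjusted p up to 0.0618), as did leaving out the trend and robust steps (0.273). For Capn3 this held of knockout replicate 1, 2, 4 or 6 and of wild type replicate 3 or 4 (up to 0.147). Capn3 was not called by edgeR (adjusted p = 0.0616), nor by limma with every gene above 0 tested, without robust, or without trend and robust (up to 0.233).

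None of the other 5 lists had a gene called by limma or edgeR (0 by each). Among M-band and titin-linked genes (11 tested), Mylk3, the cardiac myosin light chain kinase, did not overlap between the genotypes. It had 4503, 4345, 4700.1 and 5040.4 normalized counts in wild type and at most 4137 in the knockout (limma adjusted p = 0.0564, DESeq2 0.00139). Mylk4, its relative, had 1652 ± 154 against 1925 ± 297. Among ubiquitin ligases and Kelch adaptors (9 tested), Klhl38 had 226 ± 25.8 against 292 ± 21.8 without overlap (limma adjusted p = 0.0733). Klhl38 passed in 3 of 25 alternative settings, and DESeq2 called 1 gene of this list, lower. The row that joins Usp3 with the Z-disc F-box gene Fbxl22 had 384 ± 23.3 against 464 ± 41.7 (limma adjusted p = 0.157).

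Small heat shock proteins and myosin chaperones (13 tested) held Hspb8, the partner of Bag3, with 4982 ± 444 against 4082 ± 255 (limma adjusted p = 0.0558, DESeq2 0.0101), and Hspb6 with 6796 ± 367 against 5878 ± 631 (limma adjusted p = 0.195). In other thin filament and actin genes (21 tested), Xirp2, an actin-binding protein at the intercalated disc, did not overlap (6636 ± 439 against 5446 ± 903, limma adjusted p = 0.203). Tnnt1, slow skeletal troponin T, had 53.6 ± 11.0 against 68.3 ± 7.75. Of 22 transcription and splicing regulators, Mbnl1 and Rbm24, both splicing factors of muscle, had log2 fold changes of -0.23 ± 0.08 and -0.21 ± 0.09 (SE, limma adjusted p = 0.310 and 0.394). Ranges did not overlap for 6 of the 99 genes (6.06%), 3 higher and 3 lower, against 2.28% of all tested genes. The share was 4.84% among tested genes with a mean of at least 1000 normalized counts.

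**Figure D5:**
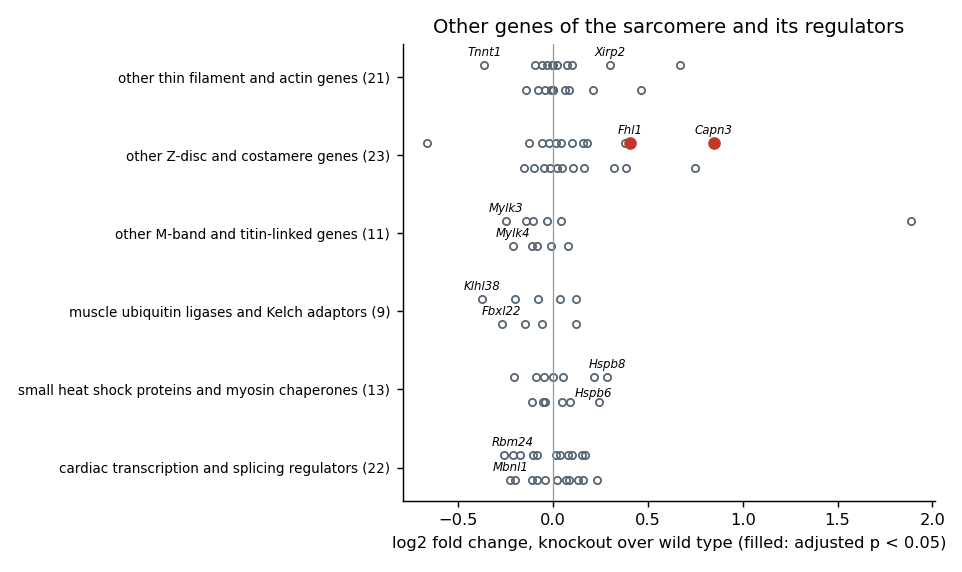
Log2 fold change, knockout over wild type, of 99 other sarcomere and regulator genes in 6 lists (number tested in brackets). Filled points, Fhl1 and Capn3, passed an adjusted p of 0.05, and the named open points have the smallest p of their list.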

How the data were processed

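The authors deposited a normalized signal: the values show whole reads per gene that were scaled by 1 factor in each library. In each library 99.99 to 100% of values above 0 came to a whole number of reads (tolerance 0.1), so reads could be recovered. Per the submitters' processing notes, the build was mm10 and the tools included Cuffdiff 2.2.1.3 and Cuffnorm 2.2.1.1, beside TopHat2 2.1.0 and Cufflinks 2.2.1. The annotation and strand setting are not given in the sources used here.

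RefSeq accessions gave a symbol for 24107 of 24160 rows (RefSeq GRCm38.p6, then GENCODE M21, whose transcripts gave lengths). Genotypes were compared in R 4.3.3 by limma 3.58.1, using its trend and robust options, on log2(normalized count + 1) in the 10 libraries, for the 14611 genes with a mean of at least 1, with two-sided p-values adjusted by Benjamini-Hochberg at 0.05. Fold changes on this scale understate the change of low genes. Errors are SDs of levels and SEs of fold changes. Alternatives were DESeq2 1.42.0 and the quasi-likelihood test of edgeR 4.0.16 on recovered reads, other pseudocounts, filters and scalings, library weights, a replicate block and leaving out each library. Robust steps were varied after the data were seen. The members and lists were chosen with earlier results of these data known. Values per library are given for members called by limma, edgeR or DESeq2, and for those with the smallest p or the highest level of their group. Of other lists, called genes and the 2 with the smallest p are named.

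On simulated data for 14611 genes with 6 against 4 libraries, the procedure found 38% of 1.3-fold, 82% of 1.5-fold and 96% of 2-fold changes in genes with a mean of at least 50, and 5.95% of its calls were false. Every pair of libraries differed by more than sampling noise (chi-square per degree of freedom at least 2.62).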

Additional observations from a re-analysis of the deposited data

Results flagged for a closer look

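In 4 of 78 sets of libraries (39 genes in each genotype), a single library stood apart from the rest of its group by its gap to the nearest value relative to the whole range. Chance alone gives about 1 in 20. Synpo2 had 1161 normalized counts in knockout replicate 5, against 959 to 1011 in the other knockout libraries, and 980.3 in wild type replicate 2, against 827 to 851 in the others. These are the libraries with the atrial and the lymphocyte transcripts. Cryab had 13462 in knockout replicate 3, against 10417 to 11500 (11499.7) in the others. Alpk3 had 1157 in knockout replicate 4, against 1364 to 1453.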

How the results depend on the processing

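Of 39 members, 2 were called in the main test. The count was 1 with every gene above 0 tested (Alpk2 lost), 0 without limma's trend and robust steps, 3 by DESeq2 and 3 by limma with trend but without robust, the last pair adding Myom2. The number higher was 1 with every gene above 0, 0 without trend and robust and 1 by edgeR. The number lower was 1 by edgeR, by DESeq2 and by limma without robust, each time Myom2. Leaving out 1 library gave 0 to 3 members called, all higher: 0 when knockout replicate 2 or wild type replicate 4 was out, 1 when knockout replicate 1 or 6 or wild type replicate 3 was, and 3 when wild type replicate 1 was, with Neb added. No paired animals are named, and same-numbered libraries did not deviate together (correlations of -0.153 to -0.0309, and no wild type library correlated best with its own number). With a replicate block 1 member was called, 0 higher and 1 lower (Myom2, log2 fold change -0.65, adjusted p = 0.00464), and Myot and Alpk2 had adjusted p = 0.218 and 0.185. The number of all genes called ran from 0 to 168 over these settings, against 67.

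The median of the M-band group, 0.04, was 0.10 (0.0966) without wild type replicate 2 and knockout replicate 5, and -0.0219 to 0.1137 with 1 library left out (the highest without wild type replicate 1). The other group medians moved by less than the spread between libraries in all settings. No ratio passed in any of 14 settings (0 each), which says nothing of stability, since 1 ratio could not pass alone in the full design or with fewer libraries (with the replicate block the smallest possible p is 0.125). Myot kept its direction in all 25 settings (0.33 to 0.50), Alpk2 too (0.30 to 0.40) and Myom2 too (-0.71 to -0.48). For Neb and Myom3, with 570 and 317 reads in all, depth limits the precision.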
